A study of Mus musculus with 6 samples.

Results

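The 8 genes described here encode the subunits of the mouse TRiC chaperonin, also called CCT: Tcp1, which encodes the subunit CCT1, and Cct2, Cct3, Cct4, Cct5, Cct6a, Cct7 and Cct8. They were found by gene name in both deposited tables, as 8 of 13932 genes and 143 of 151811 splice junctions, and all 8 passed the filter on low counts that left 13905 genes. The family was chosen by measured values of the same data, the inclusion of an 86 nt exon of Tcp1 and the gene counts of the subunits, each in the S34F against the WT libraries. Those values are therefore a description of the data and support nothing beyond themselves.

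RNA came from common myeloid progenitors, the marrow cells that give rise to granulocytes, monocytes, red cells and platelets. They were of donor origin and were sorted from the marrow of transplanted mice as lineage negative, c-Kit+, Sca-1-, CD34+ and Fcgamma-. All donors carried the rtTA transactivator, which switches on a transgene when doxycycline is given, and the transgene was U2AF1(S34F) in 3 libraries and U2AF1(WT) in the other 3. All mice received doxycycline chow for 5 days, begun over 6 weeks after transplantation, and each library pooled 4 to 5 mice. The control libraries thus also carried an induced U2AF1 transgene and had the same drug and transplant. The sources used here give neither the promoter and integration site of the transgene, nor the age of the mice, nor whether pools shared a donor.

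TRiC is a double ring in which each ring holds one copy of each of the 8 related subunits. Newly made proteins enter its cavity, a lid built from the subunits closes on ATP hydrolysis, and the protein folds inside. Actin and tubulin are its best known clients, which reach it with the help of prefoldin and of phosducin-like proteins. U2AF1 is the small subunit of the U2AF splicing factor and contacts the AG at the end of an intron. The S34F substitution, which recurs in myelodysplastic syndromes, has been described to change which base is preferred at intron position -3, just before that AG.

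The sequences below show the 86 nt exon of Tcp1 and the splice sites that compete when it is skipped, because this exon led to the choice of the family. All are from the mm9 genome and run 5′ to 3′ on the + strand. In the first, the exon at chr17:13110664-13110749 is in capitals, with 20 bases of the intron before it and 10 bases of the intron after it.
Tcp1 exon of 86 nt: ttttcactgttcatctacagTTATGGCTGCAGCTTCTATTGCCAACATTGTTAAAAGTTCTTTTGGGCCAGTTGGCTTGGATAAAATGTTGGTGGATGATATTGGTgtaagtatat
The next pair shows the last 30 intron bases and first 10 exon bases at the acceptor of this exon, chr17:13110634-13110673, and at that of the exon after it, chr17:13110879-13110918. Position -3 and the AG are in capitals.
Tcp1 acceptor of the exon: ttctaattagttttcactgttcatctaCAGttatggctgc
Tcp1 acceptor of the next exon: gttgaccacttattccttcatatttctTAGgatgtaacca
Exon 1 at chr17:13109432-13109495 is shown from the start codon of the full-length form to its last base, with both annotated start codons in capitals.
Tcp1 coding end of exon 1: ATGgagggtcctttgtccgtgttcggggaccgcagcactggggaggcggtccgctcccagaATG

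When the exon was included, exon 1 was joined to the acceptor with CAG, and the exon itself to the acceptor with TAG. When it was skipped, exon 1 was joined straight to the acceptor with TAG, so that this acceptor was used in both forms. The choice made at exon 1 was therefore between a C and a T at position -3. The exon is the second of 12 in the annotated full-length transcript, and it lies 1168 nt behind exon 1 and 159 nt before the next. Its length leaves a remainder of 2 when divided by 3. Read from the usual start codon, the skipped form met a stop after 26 codons, in the exon that follows exon 1 in it. The annotation also holds a transcript without the exon that starts at the second ATG shown above. That start codon opened the same frame as the full form downstream and gave 507 codons against 556, which is 49 fewer at the amino end. The read data do not show which start codon was used, or whether either product was made.

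The exon was skipped less in the S34F libraries than in the WT libraries. The skipped share was 4.43%, 3.69% and 4.17% in S34F replicates 1, 2 and 3, and 7.55%, 7.11% and 7.26% in WT replicates 1, 2 and 3. No S34F library came near a WT library, and the spread within either genotype was small beside the gap. The means were 4.10 ± 0.37% and 7.30 ± 0.23% (SD, n = 3), so inclusion was 95.9 ± 0.37% against 92.7 ± 0.23%, a difference of 3.21 points. The full form thus made up most of the message in both genotypes.

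The skipping junction had 126, 102 and 106 reads in S34F and 194, 247 and 326 in WT. The junction into the exon had 2469, 2415 and 2255 reads in S34F against 2216, 3008 and 4123 in WT, and the junction out of it had 2968, 2906 and 2612 against 2535, 3450 and 4209. Scaled to the junction reads of each library, the skipping junction was lower in S34F, at 2.59 ± 0.20 against 4.02 ± 0.13 reads per 1000000 junction reads (RPM; SD, n = 3). The junction into the exon was higher, at 55.6 ± 3.2 against 48.5 ± 1.1 RPM, and so was the junction out of it, at 66.1 ± 5.1 against 53.5 ± 2.3. For all 3 junctions the 3 S34F values lay on one side of the 3 WT values. The median over the main introns of Tcp1 was also higher in S34F, at 76.4 ± 5.45 against 63.2 ± 2.24 RPM. Higher inclusion junctions are thus not by themselves a change in splicing.

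**Figure D1:**
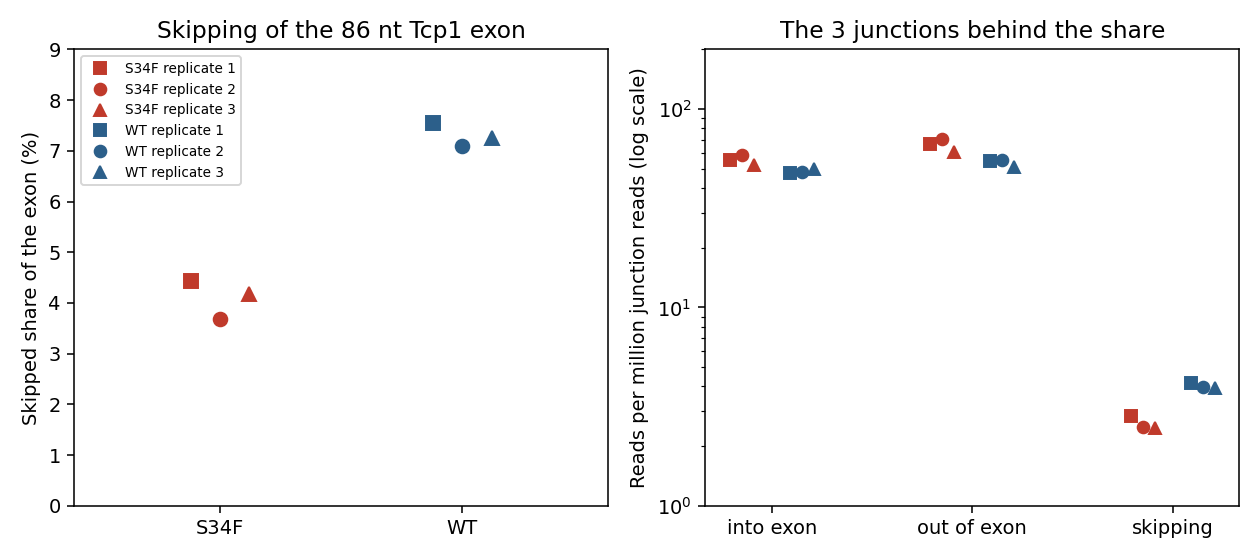
Left, the skipped share of the 86 nt Tcp1 exon in percent, 1 point per library. Right, the 3 junctions behind it in RPM on a log axis, with each genotype's 3 libraries side by side. The S34F libraries sit between 3.69% and 4.43% skipped and the WT libraries between 7.11% and 7.55%, and in S34F the skipping junction is lower and both inclusion junctions are higher than in WT.

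Because this exon was singled out for its difference, no test is given for it. Ranges of the 2 genotypes that do not overlap were found for 19.3% of the 8595 cassette exons tested, and 1396 of those exons gained at least as many points of inclusion in S34F, while 2118 lost as many. In the authors' deposited table of junction tests, the skipping junction had a log2 fold change of -0.91. Across all cassette exons fitted here with edgeR's quasi-likelihood test, 0.0% were called at an adjusted p under 0.05, with 876, or 10.2%, at an unadjusted p under 0.05, and DESeq2 called 113, or 1.40%.

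The sex of the sorted cells, which were of donor origin, differed between libraries but not between the genotypes. The Y-linked gene Ddx3y had 5714 reads in S34F replicate 1, 5580 in WT replicate 1 and 0 in the other 4 libraries. Male and female below refer to these cells, and the counts do not give the sex of the recipient mice. The inclusion difference was 3.12 points between the male libraries, 1 against 1, and 3.25 points between the female libraries, 2 against 2. Within each replicate number it was 3.12, 3.41 and 3.08 points.

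The other exons of the family were spliced in with little skipping. The main introns of the 8 genes left 90 stretches between them, which were counted as internal exons. In Cct6a this includes the stretch with the unsequenced bases described below, which is not a single exon. Of the 90, 19 had a skipping junction that shared its ends with junctions into and out of that exon. These 19 lay in 7 of the genes, and Cct5 had none. The Tcp1 junction chr17:13113732-13116084 passed over further internal exons without such shared ends for any single exon, so those were not counted. It had 6, 4 and 2 reads in S34F and 3, 10 and 0 in WT. Apart from the Tcp1 exon, the mean skipped share of the 19 ran from 0.184% to 2.96% with a median of 0.427%. In 2 of them a minor junction stood in for a main one, so their shares, 1.80% and 0.348%, are overstated. For the 63 nt exon of Cct3 the junction used into the exon had 0 to 26 reads, against 2230 to 4089 for the main one. For the 122 nt exon of Cct4 the junction used out of it had 18 to 62 reads, against 2529 to 5635. The range and median include both values as they stand. In 12 of the 18 counted exons other than the Tcp1 exon, the mean skipped share was higher in WT. Ranges did not overlap for 2 of the 18, an 80 nt exon of Cct8 with more skipping in WT and a 150 nt exon of Cct3 with less. Among the 8595 cassette exons tested, which unlike most of these 18 had both forms at 2% or more, 44.8% had more skipping in WT and 19.3% had ranges that did not overlap. In total 98 main introns held 99.5% of the family's junction reads.

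**Figure D2:**
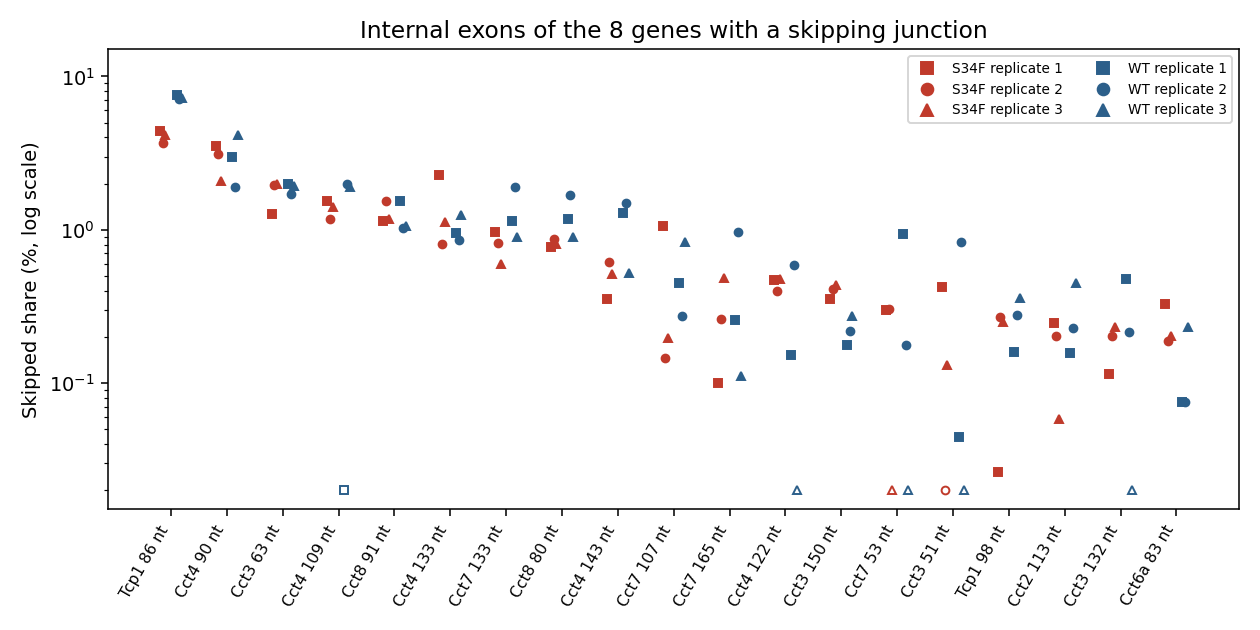
Skipped share in percent, on a log axis, of the 19 internal exons of the family counted with a skipping junction. Each point is 1 library, and exons are ordered by mean share. The shares of the 63 nt exon of Cct3 and the 122 nt exon of Cct4 are overstated, as described in the text. Open symbols at the bottom are libraries with no skipping read. The 86 nt Tcp1 exon stands highest, from 3.69% to 7.55%, and is followed by the 90 nt exon of Cct4, whose genotypes overlap.

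The second most skipped exon was a 90 nt exon of Cct4, the gene of the delta subunit, at chr11:22894298-22894387. Its splice sites are shown for comparison with those of Tcp1, again with position -3 and the AG in capitals, at chr11:22894268-22894307 for the exon itself and chr11:22895900-22895939 for the next exon.
Cct4 acceptor of the exon: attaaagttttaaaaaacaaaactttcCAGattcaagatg
Cct4 acceptor of the next exon: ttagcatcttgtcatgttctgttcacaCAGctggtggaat
Here both acceptors carried a C at position -3. The skipped share was 3.50%, 3.11% and 2.07% in S34F and 2.99%, 1.90% and 4.17% in WT. The WT libraries spanned the S34F values, and edgeR gave an adjusted p of 0.994 and DESeq2 of 0.995 for the difference. The means were 2.89 ± 0.74% and 3.02 ± 1.13% (SD, n = 3). The gap between them was smaller than the spread within either genotype.

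Acceptors and donors that share a partner site were also tested, and the entries that contain the skipping junction of Tcp1 are left out here because that junction chose the family. None of the remaining 24 acceptor and 16 donor entries had an unadjusted edgeR p under 0.05, the lowest being 0.104 and 0.0957, and DESeq2 called none of them. Most entries are mirror images of another entry of the same choice and hold the same reads, so they are not separate tests. Over all genes, 7.50% of 29709 acceptor entries and 6.41% of 30084 donor entries had an unadjusted edgeR p under 0.05. At an adjusted p under 0.05 edgeR called 0.0% of acceptor and 0.00997% of donor entries, and DESeq2 called 1.24% and 0.816%.

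A pair of minor upstream exons can be followed by their reads. In Tcp1, a junction from chr17:13108737-13110664 led into the 86 nt exon from further upstream and had 33, 42 and 46 reads in S34F and 49, 0 and 43 in WT. It held 1.68 ± 0.34% and 1.07 ± 1.08% of the reads into the exon (SD, n = 3), with WT replicates 1, 2 and 3 at 2.16%, 0% and 1.03%. In Cct5, the junction chr15:31527815-31531057 held 1.69 ± 0.51% in S34F and 2.01 ± 0.34% in WT of the reads that entered the shared acceptor. The adjusted edgeR p was 0.922 for both.

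The base at position -3 was a C in 55 of the family's 98 main introns, a T in 37, an A in 6 and a G in 0. A T there was thus found in 37.8% of the family's introns, against 31.1% of 121895 annotated acceptors with reads in the table. Tcp1 had a T in 7 and a C in 4 of its 11 introns, and Cct2 had 7 of each among 15, while Cct4 had a C in 9 of 13. These are descriptions of the sequence, and introns of 1 gene are not independent.

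In mm9 the genes lie on 8 chromosomes: Tcp1 at chr17:13108567-13117933, Cct2 at chr10:116488054-116500870, Cct3 at chr3:88101038-88125689, Cct4 at chr11:22890519-22903780, Cct5 at chr15:31520555-31531602, Cct6a at chr5:130293315-130321696, Cct7 at chr6:85401499-85418471 and Cct8 at chr16:87483570-87496114. Cct2, Cct5 and Cct8 are on the - strand and the others on the + strand. At the level of whole genes, the 8 subunits were measured with high counts in every library. The S34F libraries held 46827909 to 51862032 gene counts and the WT libraries 54727541 to 94562984, and counts were scaled to 1000000 per library with TMM factors (CPM). The S34F to WT differences below are log2 fold changes of scaled counts from edgeR's quasi-likelihood fit over all 13905 genes, with Benjamini-Hochberg adjustment over all of them. In bulk RNA, a change in the share of a cell type and a change in RNA per cell cannot be told apart. Replicates were separate pools of mice.

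Of the 8 genes, 7 had a higher mean in S34F, and in 3 (Tcp1, Cct7 and Cct8) every S34F library was above every WT library. Over all genes, 7.16% were higher in S34F without overlap. None of the 8 passed an adjusted p of 0.05 with edgeR, which called 0.0% of all genes, and 3 had an unadjusted p under 0.05, as had 9.10% of all genes. DESeq2 called 1 of the 8, Cct8, where it called 0.689% of all genes and 0.244% as higher in S34F. The median log2 fold change was 0.11 for the 8 genes and -0.0052 for all genes. As the choice of the family drew on this contrast, nothing is read from these counts.

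Cct8 encodes the theta subunit and showed the widest gap. Its level was 523, 514 and 462 CPM in S34F replicates 1 to 3 and 401, 374 and 345 CPM in WT replicates 1 to 3. All S34F libraries lay above all WT libraries. The means were 500 ± 32.8 and 374 ± 27.9 CPM (SD, n = 3), a log2 fold change of 0.42 with an SE of 0.10. The adjusted p was 0.538 with edgeR and 0.041 with DESeq2, and the authors' deposited table gives a log2 fold change of 0.39 and an adjusted p of 0.0437. With DESeq2 the call held when WT replicate 1 was left out. It was lost when any of the other 5 libraries was left out singly (highest adjusted p 0.423). The authors' values came from the same libraries. As this contrast helped choose the family, the p-values and calls given for subunit genes are descriptions and support nothing further.

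Cct7, the gene of the eta subunit, stood at 348, 380 and 358 CPM in S34F and at 335, 273 and 287 CPM in WT. The genotypes did not overlap, but WT replicate 1 came close to the lowest S34F library. The log2 fold change was 0.28 with an SE of 0.11, and the adjusted p was 0.545 with edgeR and 0.372 with DESeq2.

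Tcp1 stood at 699, 722 and 633 CPM in S34F and at 567, 601 and 583 CPM in WT. Again no S34F library fell among the WT libraries. The log2 fold change was 0.23 with an SE of 0.10, and the adjusted p was 0.548 with edgeR and 0.391 with DESeq2. The gene overlaps Mrpl18 at its start and Acat3 at its end, both on the opposite strand. Mrpl18, a mitochondrial ribosomal protein gene, had a log2 fold change of -0.05, and Acat3 has no entry in the count table used here. No source used here says whether counting used the strand of the reads.

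The other 5 genes overlapped between the genotypes. Cct5, the epsilon subunit gene, stood at 638, 700 and 647 CPM in S34F and at 569, 646 and 609 CPM in WT. Cct2, of the beta subunit, stood at 656, 657 and 611 CPM against 518, 637 and 644 CPM, so that WT replicate 1 alone fell below the rest. Cct3, of the gamma subunit, stood at 460, 466 and 434 CPM against 413, 411 and 453 CPM. Their log2 fold changes were 0.12, 0.10 and 0.09 with SEs of 0.10, 0.11 and 0.09, and the lowest adjusted edgeR p of the 3 was 0.671.

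Cct6a, of the zeta subunit, stood at 347, 349 and 311 CPM in S34F and at 293, 334 and 341 CPM in WT. Cct4 was the one gene with a lower mean in S34F, at 438, 434 and 402 CPM against 404, 491 and 471 CPM. The log2 fold changes were 0.06 and -0.10 with SEs of 0.10 and 0.11, and the adjusted edgeR p was 0.854 and 0.740. In both genes WT replicate 1 was the lowest WT library.

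**Figure D3:**
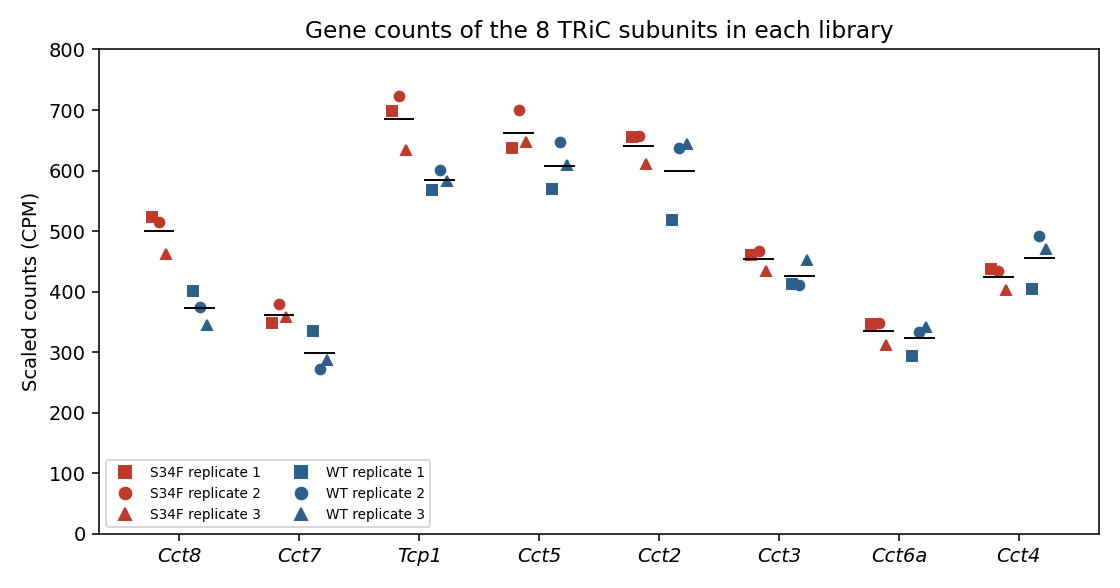
Scaled counts (CPM) of the 8 subunit genes, 1 point per library and a line at each mean, ordered by log2 fold change. The S34F points of Cct8, Cct7 and Tcp1 lie above all WT points, and the other 5 genes overlap.

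WT replicate 1, a male library, held the lowest WT value in 5 of the 8 genes (Tcp1, Cct2, Cct4, Cct5 and Cct6a) and the highest in 2, Cct7 and Cct8. Between the male libraries all 8 genes were higher in S34F, with a median log2 ratio of 0.20. Between the female libraries 5 of 8 were higher, with a median of 0.08, and Cct2, Cct4 and Cct6a had log2 ratios of -0.014, -0.20 and -0.033. In the female libraries Tcp1, Cct5, Cct7 and Cct8 were higher without overlap and Cct4 was lower without overlap. With 2 libraries against 2, 27.8% of all genes were higher and 26.5% lower without overlap, so nothing is read from these counts. Without both replicate 1 libraries edgeR called none of the 8, among 599 genes called, and DESeq2 called Cct7 and Cct8, among 1722. Without WT replicate 1 alone edgeR called Cct8 at an adjusted p of 0.031 and Cct7 at 0.046, among 1172 genes called. The share of all tested genes called was not computed for these leave-out fits, and nothing is read from their calls.

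**Figure D4:**
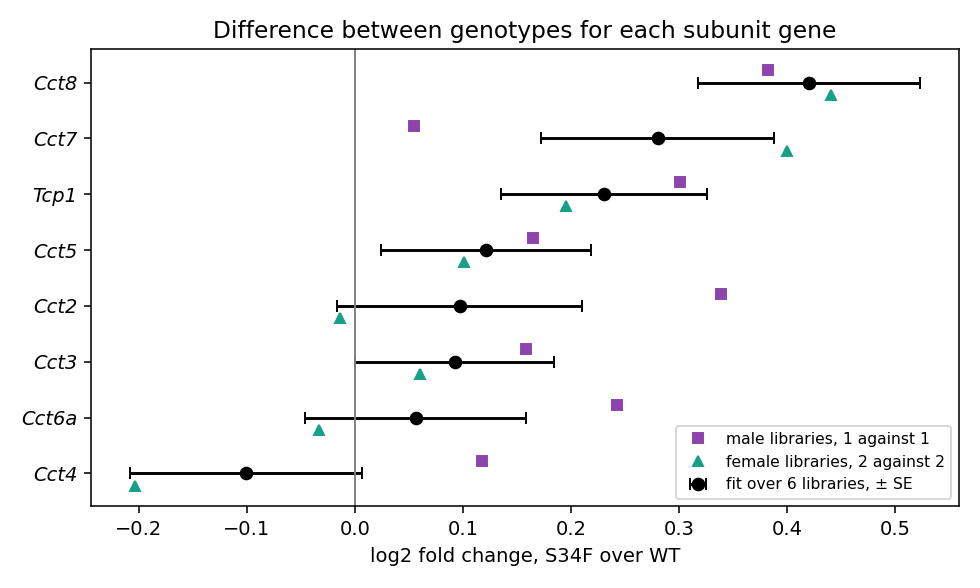
Log2 fold change of each subunit gene, S34F over WT, from the edgeR fit over 6 libraries with its SE as a bar, beside the log2 ratio of scaled counts in the male libraries and in the female libraries. Cct8, Cct7, Tcp1, Cct5 and Cct3 lie above 0 by all 3 measures, while Cct4, Cct2 and Cct6a change sides between the sexes.

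The direction also depends on the scale used. The authors' FPKM, which are reads per length of transcript and depth, were lower in S34F for most genes, with a median log2 ratio of -0.33 over 9452 genes above 1 FPKM in every library. Taken as they stand, the FPKM of 7 of the 8 subunits were lower in S34F, and Cct8 alone was higher, by 0.09 on the log2 scale. Relative to the median of all genes, Cct8 was at 0.42, Cct7 at 0.32, Cct3 at 0.20, Tcp1 at 0.14, Cct5 at 0.11, Cct2 at 0.08, Cct6a at 0.05 and Cct4 at -0.17, which is the sign of each in the scaled counts.

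Levels of different subunits can be set side by side only per length, for which the authors' FPKM and the median junction reads per intron were used. By FPKM, Tcp1 was the highest and Cct7 the lowest in all 6 libraries. Mean FPKM in S34F and WT were 165.9 ± 5.16 and 189.3 ± 30.02 for Tcp1, 132.9 ± 9.33 and 154.6 ± 21.1 for Cct5, and 124.1 ± 11.7 and 147.7 ± 32.2 for Cct2 (SD, n = 3). Cct5 was above Cct2 in every library except WT replicate 3, where they stood at 176.1 and 181.7 FPKM. Below them stood Cct4 at 94.7 ± 8.62 and 134.4 ± 32.4 FPKM, Cct3 at 97.4 ± 16.1 and 106.8 ± 19.0 FPKM, and Cct8 at 95.7 ± 7.85 and 90.1 ± 4.60 FPKM. In S34F the means of these 3 were within a few FPKM of each other, and their order changed between libraries. Cct6a followed at 76.9 ± 7.38 and 93.6 ± 16.3 FPKM and Cct7 at 67.0 ± 5.85 and 67.3 ± 6.27 FPKM. All 8 genes stood above at least 95.7% of 12133 genes by mean FPKM.

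By junction reads the upper places changed. Cct5 had the highest median per intron in 5 of 6 libraries, at 85.7 ± 1.53 RPM in S34F and 78.1 ± 4.66 in WT. Cct2 came next at 79.8 ± 3.29 and 73.9 ± 7.86, and Tcp1 followed at 76.4 ± 5.45 and 63.2 ± 2.24 RPM. Cct7 was lowest in all 6 libraries, at 45.3 ± 2.02 and 37.3 ± 5.44 RPM. Cct8 had rank 4 in all S34F libraries and WT replicate 1, and rank 7 in WT replicates 2 and 3, at 68.2 ± 4.11 against 48.0 ± 6.08 RPM. The first place of Tcp1 thus depended on the measure, while the last place of Cct7 did not.

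**Figure D5:**
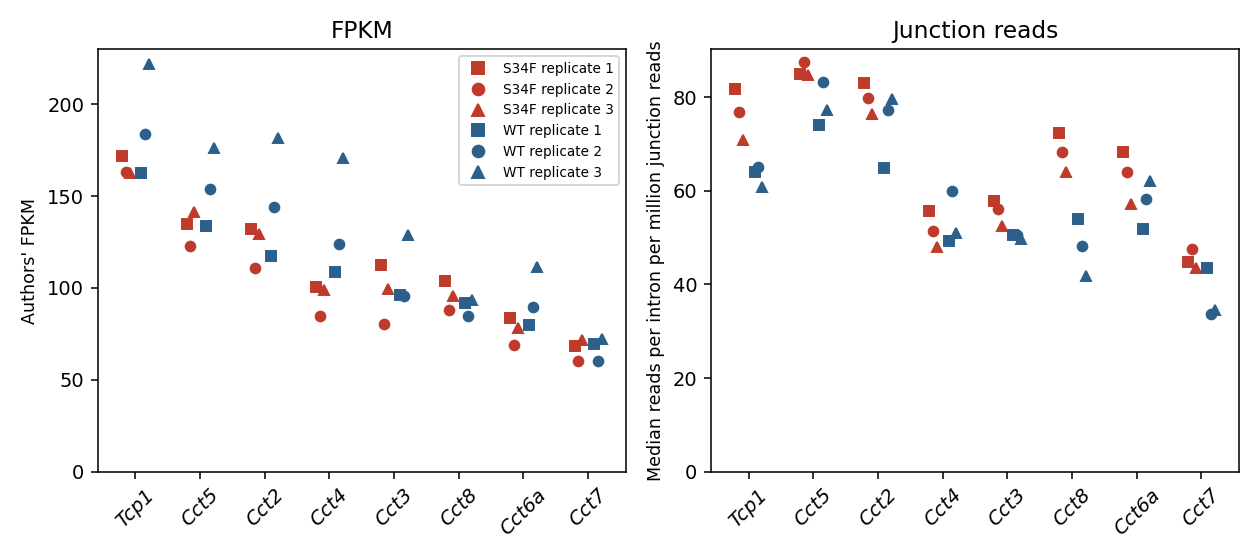
Level of each subunit gene per library by the authors' FPKM (left) and by the median RPM over introns (right), in the same gene order. Tcp1 is highest by FPKM and ranks 3 or 4 by junction reads, and Cct7 is lowest by both.

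As a share of the 8 genes' summed FPKM, Cct8 was at 11.2 ± 0.26% in S34F against 9.29 ± 1.32% in WT, and Cct4 was at 11.1 ± 0.20% in S34F against 13.5 ± 1.10% in WT (SD, n = 3). The ranges of both genes did not overlap between the genotypes, nor did those of Cct6a at 8.99 ± 0.19% and 9.50 ± 0.21%. For Cct8 the gap was slight, with S34F replicate 3 at 10.9% and WT replicate 1 at 10.7%. These shares do not depend on the scaling of the libraries, but they sum to a fixed total and so are not independent. No matching share over all genes was computed, and nothing is read from these ranges.

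The 5 genes outside the family with profiles closest to the mean of the subunits over the 6 libraries were Mrps30, Zdhhc6, Erap1, Ddx19b and Polr2b. Likeness was the root mean square distance between log2 CPM centred per gene, which was 0.018 for Mrps30 and 0.026 for Polr2b, with a median of 0.226 over 13848 genes. The subunits themselves lay at 0.045 (Tcp1) to 0.161 (Cct8) from their own mean.

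The helpers of TRiC showed no shared direction. Of the 6 prefoldin genes, which encode the jellyfish-shaped complex that hands over actin and tubulin, 3 were higher and 3 lower in S34F, with a median log2 fold change of 0.01. Vbp1 stood at 0.15, Pfdn5 at -0.23 and Pfdn6, listed as H2-Ke2, at 0.18. All 3 measured phosducin-like genes, Pdcl, Pdcl3 and Txndc9, had higher means, with log2 fold changes of 0.14, 0.16 and 0.02. Of 6 genes of the tubulin cofactors, which take tubulin from the chaperonin, 5 had lower means, with a median of -0.14, from -0.20 for Tbce to 0.24 for Tbca. The most abundant, Tbcd and Tbcb, were at -0.11 and -0.14. None of these genes was called by edgeR or DESeq2.

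Of the client genes, 8 of 11 tubulin genes had higher means in S34F, with a median log2 fold change of 0.12. The 2 most abundant were Tubb5, at 0.08, and Tuba1b, at 0.37 with an adjusted edgeR p of 0.548. Tuba1b stood at 535, 512 and 556 CPM in S34F and 502, 342 and 392.4 CPM in WT, without overlap. The extremes were the low-count Tubb1 at -0.67 and Tubb6 at 0.48. Of 11 actin and actin-related genes, 5 were higher and 6 lower, with Actb at 0.22, Actr3 at -0.14, Actr10 at 0.23 and Actg1 at -0.27. Of 16 other described clients, 9 were higher and 7 lower, from -0.33 for Gnb2 to 0.29 for Gnb1, both G protein beta subunits, with the abundant Strap at 0.17. Neither edgeR nor DESeq2 called any gene of these 3 lists.

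Among related chaperonins 4 of 6 measured genes had higher means. Hspd1 encodes the mitochondrial HSP60 and stood at 604, 577 and 510 CPM in S34F and at 429, 447 and 424 CPM in WT. The genotypes did not overlap, the log2 fold change was 0.38 with an SE of 0.10, and the adjusted p was 0.538 with edgeR and 0.077 with DESeq2. Its partner Hspe1 was at 0.12 and Bbs10, a chaperonin-like protein needed for cilia, at -0.41. Cct6b, the testis form of the zeta subunit gene, was under 1 CPM in every library. For the neighbours of Tcp1, the log2 fold changes were 0.27 for Acat2 and 0.14 for Wtap, and none of these genes was called by either tool.

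Markers of the sorted cells were present in all libraries. Summed CPM of Kit, Cd34, Mpo, Cebpa and Sfpi1 was 5618 to 7056 in S34F and 4206 to 7819 in WT. Of the 2 genes listed as low by the sort, Ly6a, which encodes Sca-1, was under 2 CPM. The other, the Fc gamma receptor gene Fcgr3, was not near 0. It stood at 33.4, 78.1 and 61.5 CPM in S34F and 38.8, 110.8 and 61.2 CPM in WT. Of 12 dendritic cell markers 11 had lower means in S34F and DESeq2 called 7 of them lower: H2-Aa, H2-Ab1, H2-Eb1, Ciita, Zbtb46, Batf3 and Clec9a. The median log2 fold change of the list was -1.99. Their summed level was 293 to 472 CPM in S34F and 565 to 727 in WT, and without Flt3, the most abundant of them, 53.7 to 110.5 CPM in S34F and 193 to 394 in WT. None was at 0 in a library. Of 9 erythroid markers 8 had lower means, with a median log2 fold change of -0.72 and sums of 298 to 349 against 308 to 338 CPM. Most of these sums was Tfrc, the marker with a higher mean, at 239, 294 and 242 CPM in S34F and 191, 250 and 206 CPM in WT. The sums thus say little about the other erythroid markers. Megakaryocyte markers summed to 87.7 to 117.0 CPM in S34F and 126.9 to 173.0 in WT, with 4 of 6 lower. Neutrophil and monocyte markers summed to 2688 to 5236 CPM in S34F and 3760 to 4180 in WT, with 6 of 10 lower. Lymphoid markers summed to 75.7 to 96.8 CPM in S34F and 65.2 to 92.7 in WT, with 3 of 6 lower. Neither tool called a gene of these lists. Proliferation markers summed to 5497 to 5792 CPM in S34F and 5253 to 5569 in WT, with 8 of 14 higher. The part of these cell types and of proliferation in the subunit values was not tested.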

How the data were processed

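Per the series text and the file headers, the authors aligned stranded paired reads of 100 bp to mm9 and deposited raw counts per gene and per splice junction. The authors also deposited fold changes (a ratio and its log2), p-values, and for junctions a DEXSeq test with a dispersion score and a mean coverage signal, and FPKM per gene. The submitters' processing notes name TopHat2 2.0.8, Cufflinks 2.1.1 and HTSeq 0.5.4p1. Genotypes were taken from sample titles, since the genotype entry reads S34F for all 6.

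Counts were fitted here with edgeR 4.0.16 (TMM, default filter, quasi-likelihood test) in R 4.3.3, with DESeq2 1.42.0 and limma 3.58.1 as alternatives. Cassette exons of 10 to 1000 nt entered with 20 reads in every library and both forms at 2% or more (1% for acceptors and donors), as an interaction of genotype and form with a term per library. Inclusion averages both junctions. Members and lists were chosen with earlier results of these data known. Named from each list of related genes were genes called by either tool, the 2 most abundant and both extremes. The GT-AG check held for 99.98% of junctions. No second genomic place matched a subunit's coding sequence at 95% identity or more (highest 91.4%).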

Additional observations from a re-analysis of the deposited data

How the results depend on the processing

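The inclusion difference of the Tcp1 exon ranged from 3.00 to 3.37 points when each library was left out. From the upstream junction alone it was 3.19 points and from the downstream junction alone 3.21. All of these lay within the replicate spread of the main value. The mean of the within-number differences equals the main value by construction and is no check on it. The count of genes called was 0 with edgeR and became 96 with DESeq2 and 5 with the replicate block, while leaving out single libraries gave 0 to 1172. Leaving out both replicate 1 libraries, chosen after seeing the data, gave 599 with edgeR and 1722 with DESeq2. Subunit genes called went from 0 to 1 with DESeq2, to 0 to 2 when single libraries were left out, and to 2 with DESeq2 without both replicate 1 libraries. Cassette exons called went from 0 to 113 with DESeq2. Acceptor choices called went from 0 to 368 with DESeq2 and 59 with limma. Donor choices called went from 3 to 236 with DESeq2, 66 with limma and 0 with the replicate block, and 0 to 5 when single libraries were left out. The cause was not tested.

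The log2 fold change of Cct6a reversed to -0.0080 without WT replicate 1 (DESeq2: -0.0098), with a highest leave-out value of 0.10, and to -0.033 without both replicate 1 libraries (DESeq2: -0.040). There Cct2 also reversed, to -0.013 (DESeq2: -0.021). The log2 change of the Cct4 exon ranged from -0.27 to 0.33 over the leave-outs, being reversed without S34F replicate 3 (-0.19) and without WT replicate 3. The DESeq2 leave-outs, the FPKM scale and the fits without both replicate 1 libraries were chosen after seeing the data.

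Same-numbered libraries had deviations correlated at 0.27, 0.34 and 0.04, and differently numbered libraries at -0.40 to 0.17. Replicates 1 and 2 of both genotypes correlated best with their own number, and replicate 3 of neither did. Both replicate 1 libraries were male, so the numbers carry sex at least in part. No label says that they mark pairs, and the main fit did not use them, with the replicate block as an alternative. Depth limits the exons skipped at under 0.5%, whose skipping reads numbered 13 to 46 per genotype. P-values measure the spread between 3 pools per genotype.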

Other observations

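Several minor junctions of the family were well covered in some libraries and nearly absent in others. With limits chosen after seeing the data (at least 50 reads in one library and at most 3 in another, of either genotype), 7 of 112 family junctions met this description, or 6.25%, against 1.21% of 106967 junctions of all genes. The genes of the family are highly expressed and the comparison was not matched for read level, so nothing is read from it. In Cct2, a junction at chr10:116494329-116494847 had 163, 2 and 0 reads in S34F and 1, 238 and 0 in WT. In Cct4, one at chr11:22901690-22902181 had 73, 74 and 57 reads in S34F and 3, 119 and 157 in WT. Neither followed the genotype, and edgeR and DESeq2 called neither.

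The mm9 model of Cct6a is broken near its end. The stretch chr5:130300524-130320688 between 2 of its annotated exons is 20165 nt long, of which 20000 are unsequenced. The junction before it, with an intron of 135 nt, had 172, 145 and 179 reads in S34F and 169, 258 and 386 in WT, where the junction just upstream had 2840 to 6523. The first junction after it, with an intron of 33 nt, had 0, 113 and 150 reads in S34F and 0, 172 and 0 in WT.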
